A study of Mus musculus with 32 samples.

Results

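HDM ears were compared with sham ears in mice of NC/Nga, an inbred line in which dermatitis develops readily, on 16 of the 32 arrays of the study: 8 ears of mice given the agent that the labels call HDM and 8 ears of mice labelled sham. The other 16 arrays hold back skin of sham and HDM mice. No alleles, age, sex or dose are in the labels, HDM is not spelled out, and neither the sham procedure nor the schedule of dosing is described. The study's title calls the condition HDM-induced dermatitis, the mice were kept specific-pathogen-free, and the RNA came from 8 mm ear punches, so each array averages every tissue layer of the ear, and precision is limited by how many arrays there are. All 22206 transcript rows of the 28846 rows in the table entered the comparison, and the other 6640 rows are array controls. A gene symbol belongs to 19572 of these rows, for 19505 genes. The titles number the mice 1 to 8 within each group, which makes the ears of a group separate mice, although back skin and ear of 1 number may come from the same animal. As a check of the tissue, the cartilage markers Acan, Cnmd, Col2a1 and Matn1 averaged 6.40 in sham ears against 3.47 in sham back skin, although Col2a1 and Matn1 stayed below background in both ear groups.

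Skin is sealed by an epidermis whose keratinocytes move outward, exchange basal for suprabasal keratins and end as flat cornified cells wrapped in a cross-linked protein envelope and in ceramide-rich lipid. When this epidermis is injured or inflamed, keratinocytes switch to stress keratins, small proline-rich proteins, alarmins and antimicrobial proteins, divide faster and release cytokines of the IL-1 and IL-36 families together with chemokines that draw in neutrophils and monocytes. Cytokines of type 2 and type 17 lymphocytes act back on the same keratinocytes. The mouse ear is a thin fold in which haired skin covers both faces of a cartilage plate, with fat, nerves and thin striated muscle between them.

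Many genes differed between the groups. With limma on the 16 ear arrays and an adjusted p under 0.05 over all rows, 3500 rows were higher in HDM ears (15.8% of those tested) and 3233 were lower (14.6%), together 6733 (30.3%). The larger changes were mostly increases. A difference of at least 1 on the log2 scale was reached by 1673 of the higher and 1404 of the lower rows, and one of at least 4 by 116 and 5. In 1107 rows (4.99%) all HDM ears lay above all sham ears, and in 591 rows (2.66%) all lay below. The median difference over all rows was -0.02. These shares and this median, which include rows too dim to be detected, are the background against which each gene list below should be read. The deposited log2 values run from 1.71 to 19.93, which is wide for the method used, so a difference may not be an exact log2 fold.

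Background was taken as the median of the negative control rows on each array, and it was itself lower in HDM ears. It lay between 5.09 and 5.38 in sham ears and between 4.61 and 4.98 in HDM ears, so that the groups did not overlap, and the part of this shift in differences of dim genes was not tested. Of the 7481 rows (33.7%) below background on all 16 arrays, 229 were called. The remaining rows were thus called in a larger share than the 30.3% of all rows, which limits the comparison for lists of detected genes. Where a gene was below background on all ears of 1 group, its fold is given only as a lower bound, with the background standing in for the missing value, and no size is given where that bound is under 1 or both groups are below background. Array medians lay between 5.99 and 6.15, and 54.4% to 60.0% of rows were above background.

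**Figure D1:**
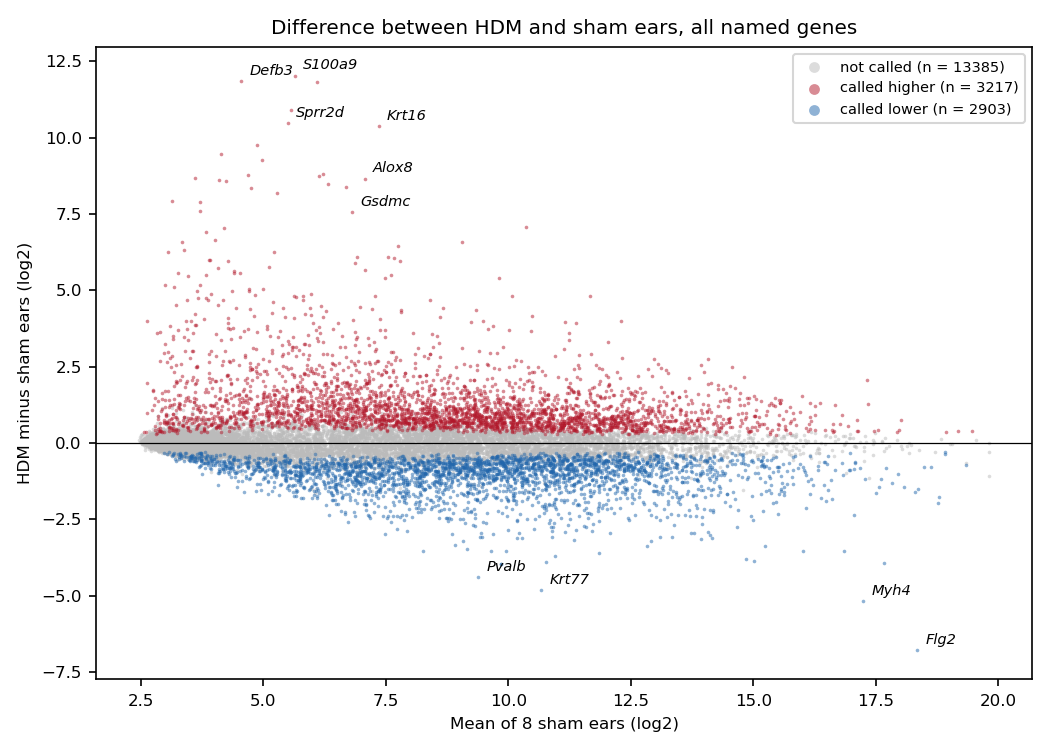
Difference between HDM and sham ears (y axis, log2 scale) against the mean of the sham ears (x axis, log2 scale) for 19505 genes, with genes called higher in red, called lower in blue and not called in grey. The genes called higher by 4 or more mostly start from a low level in sham ears, and the named genes called lower by 4 or more are Flg2, Myh4, Krt77 and Pvalb.

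Alarmin, antimicrobial and stress genes led the increases, and the cells that made their RNA were not identified. S100a9, which encodes a subunit of the antimicrobial alarmin calprotectin, ran from 4.11 (median 5.54) to 8.56 in sham ears and from 15.48 (median 18.10) to 19.07 in HDM ears. The HDM ear with the least S100a9 was thus far above the sham ear with the most, and the difference was 12.03 ± 0.66 (adjusted p = 1.98e-09). Its partner S100a8 ran from 4.14 (median 5.66) to 9.32 in sham ears and from 15.65 (median 18.26) to 19.83 in HDM ears, again without overlap, and rose by 11.81 ± 0.76 (adjusted p = 1.93e-08). Both subunits are made by stressed keratinocytes as well as by neutrophils, and in bulk tissue more cells of a type and more RNA per cell cannot be told apart. Defb3, a beta-defensin gene, had 3.04, 4.83 and 6.87 in sham ears (lowest, median and highest) and 13.72, 16.61 and 18.11 in HDM ears. Only 2 sham ears were above background for Defb3, while every HDM ear was, and the rise was 11.86 ± 0.70 (adjusted p = 6.61e-09), or 10.99 with values under background raised to it. Lcn2, which encodes a siderophore-binding protein that withholds iron from bacteria, rose by 8.74 ± 0.75 (adjusted p = 5.45e-07) with no overlap of the groups. Among antimicrobial and calprotectin genes as a list, 17 rose and 1 fell of 23 measured, and 11 had all HDM ears above all sham ears.

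Krt16, a keratin of wounded and hyperproliferative epidermis, ran from 5.73 (median 7.22) to 9.71 in sham ears and from 16.11 (median 17.95) to 18.71 in HDM ears. Every sham ear was above background for Krt16, and all HDM ears stood well clear of them, with a rise of 10.37 ± 0.57 (adjusted p = 1.98e-09). Krt17, another stress keratin gene, rose by 2.54 ± 0.38 (adjusted p = 1.03e-04), and of the stress keratins 2 rose and 0 fell of 3 measured. Alox8, an epidermal lipoxygenase gene, ran from 5.34 (median 6.68) to 10.94 in sham ears and from 14.74 (median 15.76) to 16.53 in HDM ears. The highest sham ear lay below the lowest HDM ear, and the rise was 8.66 ± 0.57 (adjusted p = 2.48e-08). In the list of lipoxygenases as a whole, 5 rose and 3 fell of 10 measured. Cstdc5 and Stfa3, genes of the stefin A cluster of cysteine protease inhibitors, rose by 10.92 ± 0.80 (adjusted p = 9.30e-08) and 9.28 ± 0.76 (adjusted p = 3.44e-07). Stfa2 and Csta3 of the same cluster were below background in all sham ears and at least 340-fold (adjusted p = 1.45e-06) and at least 136-fold (adjusted p = 2.17e-06) higher in HDM ears. The gene 2610528A11Rik ran from 5.43 (median 6.04) to 7.21 in sham ears and from 12.30 (median 15.28) to 17.14 in HDM ears. It rose by 8.80 ± 0.70 (adjusted p = 2.26e-07). Members of the Sprr2 and stefin A clusters are near-identical copies whose probes may not tell them apart, so values of single members are uncertain.

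**Figure D2:**
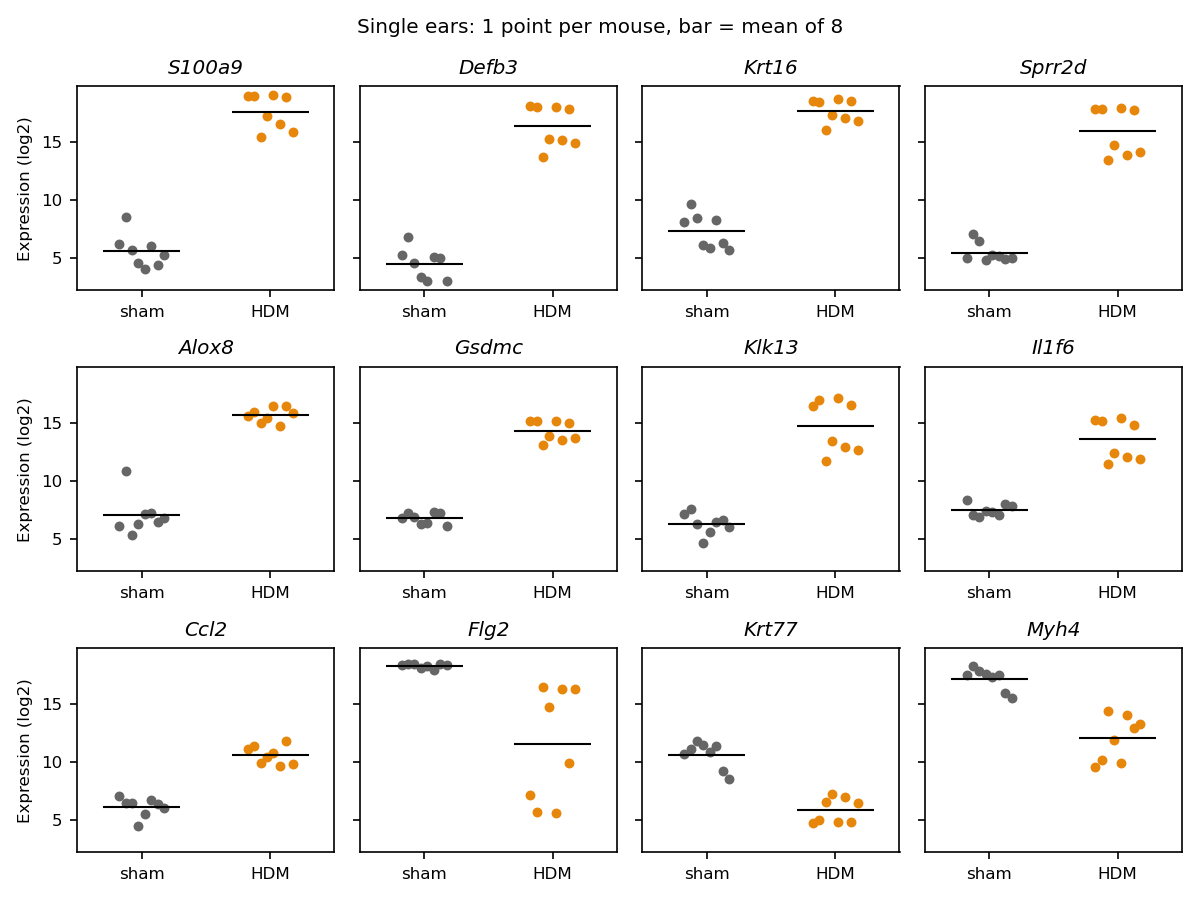
Expression of 12 leading genes in single ears (y axis, log2 scale), sham in grey and HDM in orange, with 1 point per mouse and a bar at the mean of the 8 ears. For all 12 genes the HDM points lie wholly above or wholly below the sham points, and for Flg2 the HDM points run from 5.68 (median 12.40) to 16.48.

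The small proline-rich proteins, which are cross-linked into the cornified envelope, moved as a family. Of 13 measured members, 11 rose and 0 fell, with a median difference of 6.25, or 4.11 counting genes under background at their bound, and all 11 risers were without overlap. Sprr2d had 4.89, 5.12 and 7.09 in sham ears (lowest, median and highest) and 13.47, 16.31 and 18.01 in HDM ears. No sham ear came near the lowest HDM ear, and the rise was 10.49 ± 0.70 (adjusted p = 3.06e-08). Sprr2e rose by 9.75 ± 0.78 (adjusted p = 2.53e-07), Sprr2b by 8.78 ± 0.62 (adjusted p = 5.93e-08) and Sprr2f by 8.61 ± 0.94 (adjusted p = 6.97e-06). For these last 3, the mean of the sham ears was under background, and the differences with low values raised to background were 9.20, 8.24 and 7.44. Because members of this cluster on chromosome 3 rose together, a stretch of promoter is shown for 6 of them, with the match to the AP-1 motif TGANTCA in capitals. They are 6 of the 7 Sprr2 genes that rose by at least 4 and have a match, so its presence in each follows from the choice. Sprr2k, not shown, rose by 4.24 and has matches that begin at -196 and -182 from the annotated start. Sprr2 genes without a match are not shown. AP-1 is the factor formed by Fos and Jun proteins. The sequences come from RefSeq on the build GRCm38.p6, all on the plus strand, each with 20 bases on either side of the match.
Sprr2d, chr3:92338927-92338973: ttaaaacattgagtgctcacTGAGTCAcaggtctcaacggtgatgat
Sprr2e, chr3:92351930-92351976: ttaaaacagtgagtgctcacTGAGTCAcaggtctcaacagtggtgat
Sprr2b, chr3:92316490-92316536: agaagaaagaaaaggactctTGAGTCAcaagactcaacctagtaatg
Sprr2f, chr3:92364970-92365016: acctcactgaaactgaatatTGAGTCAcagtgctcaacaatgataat
Sprr2i, chr3:92407778-92407824: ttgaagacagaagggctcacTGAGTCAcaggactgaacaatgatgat
Sprr2h, chr3:92385467-92385513: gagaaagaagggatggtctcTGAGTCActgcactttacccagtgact
The match begins 193 to 198 bases before the annotated start in these 6 genes, and the motif TATAAA begins 29 bases before it in each. These copies share their ancestry, so they are not independent occurrences. Of the 19505 genes, 15691 have a promoter of 300 bases in the table, from 250 before to 50 after the start. Both strands were searched, and TGANTCA occurred in 7.27% of all these promoters, in 7.33% of those of genes called higher and in 5.22% of those of genes called lower. Among genes called higher by at least 4, it occurred in 14 of 91 promoters (15.4%), of which 7 belong to Sprr2 genes. TATAAA, which was added after the data were seen, occurred in 13.1% of all promoters, 10.9% of the higher and 8.72% of the lower genes, and in 35.2% of the 91. The STAT motif TTCNNNGAA was in 7.90% of all, 8.64% of the higher and 5.83% of the lower promoters, and in 10 of the 91. The kappa B motif of NF-kB was in 8.86%, 10.1% and 10.1%, and in 14.3% of the 91. These matches describe letters in a window and show no binding.

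Other parts of the cornified envelope split in both directions. Of filaggrin-like genes 1 rose and 2 fell of 6 measured. Of the late cornified envelope genes, 8 rose and 5 fell of 23 measured, and the risers were led by Lce3a, Lce3d and Lce3c, with differences of 6.25 ± 0.64 (adjusted p = 3.44e-06), 6.08 ± 0.72 (adjusted p = 1.39e-05) and 5.90 ± 0.72 (adjusted p = 2.05e-05). The LCE3 subgroup is known for induction in damaged epidermis. Rptn, which encodes repetin, a matrix protein of the envelope, rose by 6.46 ± 0.65 (adjusted p = 2.90e-06). Its relative Flg2, a filaggrin-like protein gene of the granular layer, showed the largest fall of all named genes called. Flg2 ran from 18.00 (median 18.40) to 18.53 in sham ears and from 5.68 (median 12.40) to 16.48 in HDM ears. The sham ears were nearly alike, the HDM ears were widely scattered, and the fall was 6.79 ± 1.55 (adjusted p = 0.00275). Lor, which encodes loricrin, the main envelope protein of normal epidermis, fell by 1.76 ± 0.41 (adjusted p = 0.00325), and Ivl, the involucrin gene, by 0.67 ± 0.16 (adjusted p = 0.00428). Cnfn, Tgm3 and Casp14, which encode an envelope protein, a transglutaminase and a caspase of terminal differentiation, rose by 4.16 ± 0.50 (adjusted p = 1.89e-05), 3.94 ± 0.45 (adjusted p = 1.03e-05) and 3.56 ± 0.48 (adjusted p = 4.90e-05). Over envelope precursors and processing genes, 9 rose and 4 fell of 21 measured. No row carried the symbol of filaggrin itself.

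Keratins of normal epidermis also moved apart from one another, where 2 rose and 4 fell of 11 measured. Krt77, an epidermal type II keratin gene, ran from 8.56 (median 11.01) to 11.87 in sham ears and from 4.76 (median 5.77) to 7.24 in HDM ears, so that the highest HDM ear was below the lowest sham ear, and it fell by 4.81 ± 0.50 (adjusted p = 4.77e-06). Krt15, a keratin of resting basal and follicle stem cells, fell by 3.55 ± 0.64 (adjusted p = 4.81e-04). Krt1, the early suprabasal keratin, rose by 2.06 ± 0.23 (adjusted p = 8.74e-06), and the basal keratin gene Krt14 by 0.41 ± 0.10 (adjusted p = 0.00374), a call lost after quantile normalization (adjusted p = 0.241), while Krt5 and Krt10 differed by -0.04 ± 0.12 (adjusted p = 0.836) and 0.01 ± 0.11 (adjusted p = 0.958). Krt10 reached 19.93, the top of the value range, on a sham ear, so a difference there could be hidden. Among desmosome genes, 4 rose and 2 fell of 14 measured, with Dsg3, the desmoglein of lower epidermal layers, up by 1.85 ± 0.17 (adjusted p = 1.38e-06) and Dsg1a, that of upper layers, down by 1.49 ± 0.39 (adjusted p = 0.0076). For Dsg1a the groups overlapped, with 6 HDM ears below every sham ear. Of tight junction and connexin genes, 4 rose and 6 fell of 16 measured. The connexin genes Gjb2 and Gjb6 rose by 5.50 ± 0.65 (adjusted p = 1.45e-05) and 4.80 ± 0.63 (adjusted p = 3.62e-05), and Cgn, which encodes the tight junction protein cingulin, fell by 3.16 ± 0.50 (adjusted p = 1.54e-04).

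Proteases and their inhibitors rose in parallel. Kallikreins and membrane serine proteases cut the links between cornified cells, and of 19 measured members, 15 rose and 0 fell, with a median difference of 2.32, or 1.40 counting genes under background at their bound. Klk9 ran from 9.25 (median 9.90) to 10.29 in sham ears and from 13.04 (median 15.21) to 17.00 in HDM ears and rose by 5.39 ± 0.53 (adjusted p = 2.35e-06), and Klk13 and Klk6 rose by 8.47 ± 0.76 (adjusted p = 9.19e-07) and 4.81 ± 0.47 (adjusted p = 2.04e-06), all without overlap. Of the protease inhibitor genes of epidermis, 17 rose and 3 fell of 24 measured, and their median difference was 2.08, or 1.71 with such genes at their bound.

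Lipid genes showed smaller and mixed changes. The ceramide and lipid barrier list had 11 higher and 5 lower of 23 measured. Cers3, a ceramide synthase gene for very long chains, rose by 2.57 ± 0.45 (adjusted p = 3.47e-04), and Sptlc2, a subunit of the first enzyme of sphingolipid synthesis, by 1.67 ± 0.28 (adjusted p = 2.35e-04), while the fatty acid hydroxylase gene Fa2h fell by 1.97 ± 0.61 (adjusted p = 0.0201) with overlapping groups. Sebaceous lipid genes mostly fell: of 23 measured members, 1 rose and 13 fell, with a median difference of -0.88. The sebaceous genes Hsd3b6 and Acsbg1 fell by 2.50 ± 0.64 (adjusted p = 0.00616) and 1.75 ± 0.29 (adjusted p = 2.21e-04), whereas Fabp5, a fatty acid binding protein of keratinocytes on the same list, rose by 2.30 ± 0.41 (adjusted p = 3.94e-04). In cholesterol synthesis 3 rose and 3 fell of 18 measured, a share of 33.3% called against 30.3% of all rows. The share of all rows includes those below background on every ear, which were seldom called.

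Genes of growth and biosynthesis rose. Of the cell cycle genes, 30 rose and 0 fell of 33 measured, with a median of 1.49, and the list mean went from 7.51 to 8.11 in sham ears and 8.70 to 9.97 in HDM ears. Birc5, an inhibitor of apoptosis active in mitosis, ran from 5.94 (median 6.16) to 7.45 in sham ears and from 7.80 (median 8.96) to 10.29 in HDM ears and rose by 2.62 ± 0.36 (adjusted p = 5.64e-05) without overlap. Rrm2, the ribonucleotide reductase subunit made in S phase, rose by 2.60 ± 0.31 (adjusted p = 1.45e-05), the mitotic kinase gene Aurkb by 2.52 ± 0.35 (adjusted p = 5.91e-05), and the proliferation marker Mki67 by 1.05 ± 0.16 (adjusted p = 1.18e-04). Nucleolar ribosome biogenesis genes followed with 20 of 23 risen and a median of 1.04, and mitochondrial ribosomal protein genes with 46 of 76 and 0.65. Cytosolic ribosomal protein genes were called less often than all rows, at 11.1% against 30.3%. Of 63 measured, 6 rose and 1 fell, and the median was 0.04. The single faller, Rpl3l, is the paralogue known from striated muscle, and, below background in all HDM ears, it was at least 1.63-fold (adjusted p = 3.13e-04) lower.

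Metabolic and stress genes also rose in larger shares than all rows. In glycolysis and lactate export, 14 rose and 0 fell of 18 measured, with the lactate exporter gene Slc16a3 up by 3.60 ± 0.75 (adjusted p = 0.00139) and Pgk1, a glycolytic kinase gene, by 2.22 ± 0.31 (adjusted p = 6.34e-05). Of mitochondrial oxidative phosphorylation genes, 12 rose and 3 fell of 31 measured, and the fallers Cox6a2, Cox7a1 and Cox8b encode muscle-type subunits. Targets of the oxidant sensor NRF2 and metallothioneins had 13 higher and 3 lower of 19 measured. The cystine importer gene Slc7a11 rose by 5.67 ± 0.80 (adjusted p = 6.68e-05) and the metallothionein gene Mt2 by 2.54 ± 0.36 (adjusted p = 6.68e-05), while Mt4, the metallothionein of differentiating squamous epithelium, fell by 3.07 ± 0.79 (adjusted p = 0.00616). Unfolded protein response genes had 12 of 18 risen, among them the chaperone gene Hspa5 by 1.23 ± 0.17 (adjusted p = 4.61e-05) and the asparagine synthetase gene Asns by 1.34 ± 0.14 (adjusted p = 3.44e-06). In polyamine and arginine metabolism, 9 rose and 1 fell of 14 measured, with Arg1, the liver-type arginase gene, from 5.12 (median 5.44) to 6.64 in sham ears and from 6.67 (median 9.49) to 13.02 in HDM ears and up by 4.10 ± 0.92 (adjusted p = 0.00253). For Arg1 the groups were separated by a gap smaller than the spread of the HDM ears.

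Growth factor genes changed in single members more than as a list. Of EGF receptor family genes and ligands, 3 rose and 2 fell of 12 measured. The ligand gene Epgn was below background in all sham ears and at least 12.4-fold (adjusted p = 1.59e-05) higher in HDM ears, and Hbegf rose by 3.55 ± 0.57 (adjusted p = 1.72e-04). The receptor gene Erbb2 fell by 0.85 ± 0.30 (adjusted p = 0.0398), with overlapping groups. That call was lost when single ears were left out, namely sham ear 1, 2, 4, 5, 7 or 8 or HDM ear 1, 2, 5 or 7, with adjusted p from 0.0523 to 0.0829. The exact Wilcoxon test (adjusted p = 0.0539) and limma with low values raised to the mean ear background (adjusted p = 0.0711) also missed the threshold for Erbb2. Of wound edge and plasminogen genes, 8 rose and 6 fell of 18 measured. Tnc, the gene of the provisional matrix protein tenascin C, ran from 11.63 (median 12.24) to 13.12 in sham ears and from 14.45 (median 16.48) to 17.88 in HDM ears and rose by 4.01 ± 0.50 (adjusted p = 2.45e-05), and Cd44, the hyaluronan receptor gene, by 2.76 ± 0.24 (adjusted p = 7.83e-07). Col17a1, a collagen of the hemidesmosome, fell by 1.67 ± 0.37 (adjusted p = 0.00229). Of AP-1 and other immediate transcription factor genes, 6 rose and 0 fell of 17 measured, and the AP-1 genes Fosl1 and Junb rose by 3.26 ± 0.43 (adjusted p = 3.65e-05) and 2.23 ± 0.31 (adjusted p = 5.09e-05) with no overlap. Among epidermal transcription factors 4 rose and 4 fell of 18 measured, with the epithelial factor Ehf up by 2.88 ± 0.28 (adjusted p = 2.04e-06) and the follicle factor Sox9 down by 1.67 ± 0.35 (adjusted p = 0.00138).

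**Figure D3:**
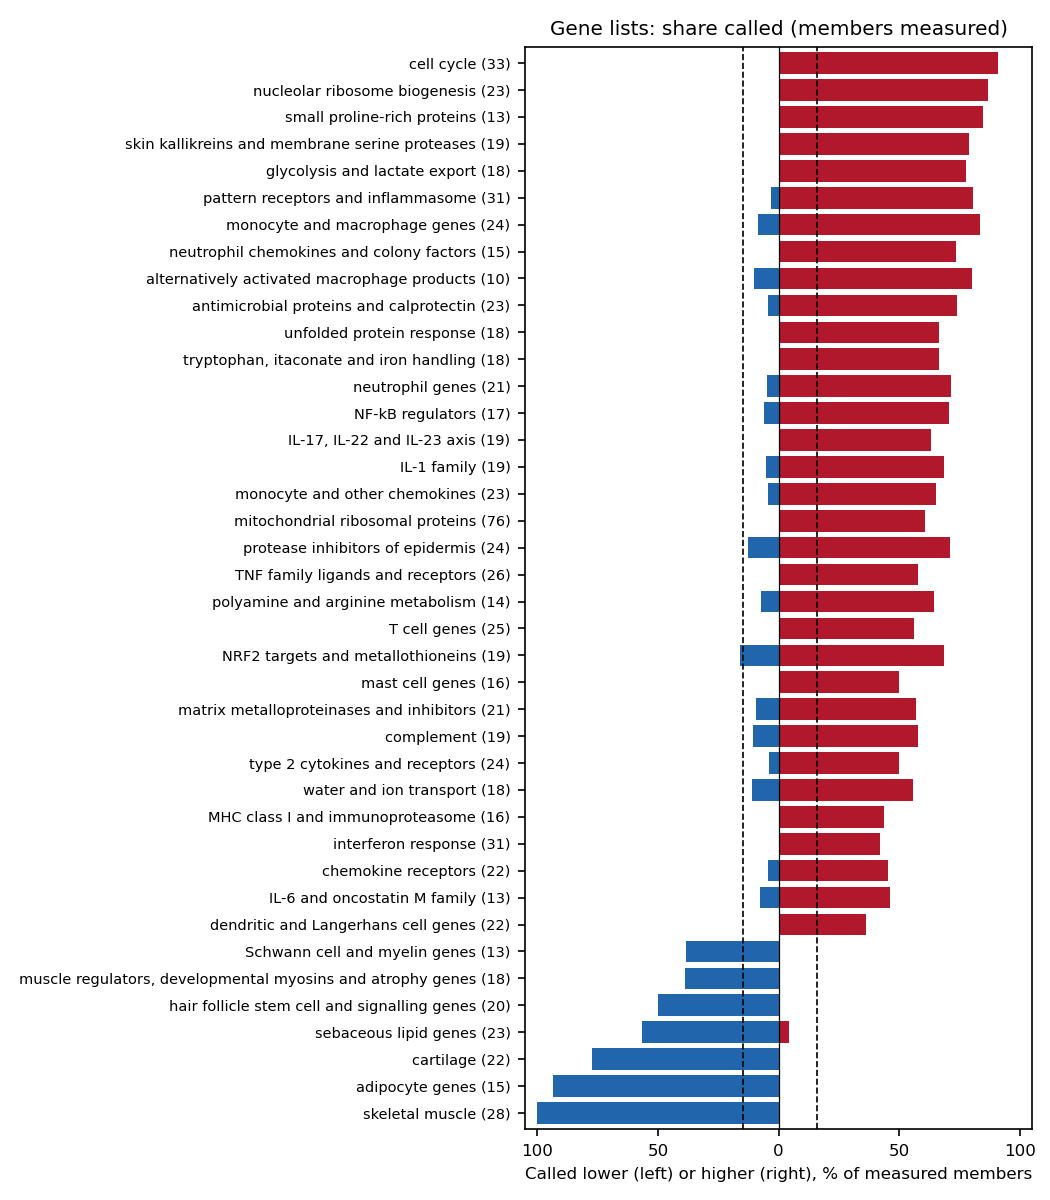
Share of the measured members called higher (red, to the right) and lower (blue, to the left) in HDM ears, for the 40 gene lists of at least 10 measured members with the largest net share, in percent of the members measured, with dashed lines at the shares of all rows, 15.8% and 14.6%. Keratinocyte stress, growth and myeloid lists extend to the right, and muscle, cartilage and adipocyte lists extend to the left.

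Neutrophil genes and the factors that attract neutrophils rose steeply. Of 21 measured members, 15 rose and 1 fell, with a median difference of 4.68, or 3.15 counting genes under background at their bound, and the list mean ranged from 4.22 to 4.85 in sham ears and 6.24 to 10.40 in HDM ears. Csf3r, the receptor of the granulocyte growth factor, and Retnlg, a neutrophil product, were below background in all sham ears. They were at least 43.9-fold (adjusted p = 1.03e-04) and at least 69.5-fold (adjusted p = 8.37e-05) higher in HDM ears. Cxcr2, the chemokine receptor of neutrophils, ran from 6.65 (median 7.31) to 7.95 in sham ears and from 9.55 (median 12.08) to 14.98 in HDM ears and rose by 4.81 ± 0.72 (adjusted p = 9.96e-05) with no overlap. Of neutrophil chemokines and colony factors, 11 rose and 0 fell of 15 measured. Cxcl2 and Cxcl5, both ligands of that receptor, were below background in all sham ears and at least 83.5-fold (adjusted p = 8.26e-05) and at least 58.4-fold (adjusted p = 1.96e-04) higher. Cxcl5 also showed how unevenly HDM ears responded, since it ran from 5.25 (median 11.99) to 15.45 among them.

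In the IL-1 family 13 rose and 1 fell of 19 measured. Il1b, the main secreted inflammatory cytokine of myeloid cells in the family, was below background in all sham ears, ran from 7.20 (median 11.33) to 14.67 in HDM ears, and was at least 64.9-fold (adjusted p = 5.84e-05) higher. Il1f6, which encodes the keratinocyte cytokine IL-36 alpha, ran from 6.90 (median 7.40) to 8.44 in sham ears and from 11.50 (median 13.70) to 15.49 in HDM ears and rose by 6.09 ± 0.58 (adjusted p = 1.79e-06) without overlap. The antagonist gene Il1rn rose by 3.08 ± 0.41 (adjusted p = 3.96e-05), and Il33, the alarmin of the family that drives type 2 responses, by 1.72 ± 0.51 (adjusted p = 0.0161). For Il33 the groups overlapped, with 5 HDM ears above every sham ear, and the exact Wilcoxon test gave an adjusted p of 0.134.

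Monocyte and macrophage genes also rose together. Of 24 measured members, 20 rose and 2 fell, with a median difference of 2.51, and the list mean ranged from 7.49 to 7.79 in sham ears and 8.68 to 10.82 in HDM ears. Fcgr3, a receptor for immunoglobulin G, ran from 10.69 (median 11.21) to 11.68 in sham ears and from 13.41 (median 15.36) to 16.55 in HDM ears and rose by 3.96 ± 0.44 (adjusted p = 7.77e-06). Its signalling chain gene Fcer1g rose by 4.38 ± 0.68 (adjusted p = 1.31e-04) and the lipopolysaccharide co-receptor gene Cd14 by 4.78 ± 0.88 (adjusted p = 5.36e-04). The macrophage markers Adgre1, Csf1r and C1qa rose as well, by 0.71 to 2.50. Of alternatively activated macrophage products, 8 rose and 1 fell of 10 measured, with the mannose receptor gene Mrc1 up by 3.32 ± 0.36 (adjusted p = 6.53e-06) and the chitinase-like gene Chil3 at least 24.2-fold (adjusted p = 2.08e-05) higher. Complement genes gave 11 of 19 risen, led by C1qb with 3.30 ± 0.40 (adjusted p = 1.94e-05), a chain of the C1q recognition molecule. Of pattern receptor and inflammasome genes, 25 rose and 1 fell of 31 measured. Gsdmc, a gasdermin gene of epithelium, had 6.16, 6.87 and 7.39 in sham ears (lowest, median and highest) and 13.15, 14.48 and 15.24 in HDM ears, and its rise of 7.57 ± 0.32 (adjusted p = 6.04e-11) had the smallest adjusted p of the genes named here.

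Chemokines for monocytes and other leukocytes included 15 of 23 risen members and a median of 2.02, or 1.81 with genes under background at their bound. Ccl9 ran from 5.95 (median 7.84) to 8.40 in sham ears and from 11.65 (median 14.08) to 15.03 in HDM ears and rose by 6.05 ± 0.44 (adjusted p = 9.30e-08). Ccl2, the classical monocyte attractant, ran from 4.55 (median 6.43) to 7.08 in sham ears and from 9.71 (median 10.66) to 11.82 in HDM ears and rose by 4.48 ± 0.36 (adjusted p = 2.53e-07). Neither overlapped between the groups. Ccl12, another ligand of the Ccl2 receptor, was below background in all sham ears and at least 25.7-fold (adjusted p = 3.44e-06) higher. Among chemokine receptors, 10 rose and 1 fell of 22 measured.

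Among type 2 genes, receptors and chemokines rose while the signature cytokines were below background. Over the list, 12 rose and 1 fell of 24 measured, and 9 members were below background on all 16 arrays. Il4 and Il13, the signature cytokines, and Il31, the itch cytokine, were below background on every ear and were not called (adjusted p = 0.25, adjusted p = 0.422 and adjusted p = 0.464). Il4ra, the receptor chain shared by IL-4 and IL-13, ran from 8.78 (median 9.25) to 9.57 in sham ears and from 11.29 (median 13.30) to 14.91 in HDM ears and rose by 3.98 ± 0.50 (adjusted p = 2.37e-05), and its partner Il13ra1 rose by 0.63 ± 0.12 (adjusted p = 7.54e-04). Ccl8 and Ccl22, chemokines linked to type 2 cell recruitment, rose by 5.96 ± 0.67 (adjusted p = 8.36e-06) and 3.20 ± 0.31 (adjusted p = 1.98e-06). Ccl17, which shares a receptor with Ccl22, was below background in all sham ears and at least 5.88-fold (adjusted p = 1.79e-06) higher. Tslp, a keratinocyte cytokine that starts type 2 responses, was -0.33 ± 0.40 (adjusted p = 0.592), and Tnfsf4, the OX40 ligand gene, was below background throughout, while its receptor gene Tnfrsf4 was 0.59 ± 0.22 (adjusted p = 0.0525) and passed the threshold without sham ear 4 (adjusted p = 0.0127) or HDM ear 3 (adjusted p = 0.00728). It also passed with equal medians (0.0482), with the filter on dim rows (0.0375) and with values raised to each array's background (0.0253).

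Genes of the IL-17, IL-22 and IL-23 axis had 12 higher and 0 lower of 19 measured. Il17a was above background in 3 HDM ears and in no sham ear and was not called (adjusted p = 0.107). Il17f was above background in 5 HDM ears and at least 2.33-fold (adjusted p = 0.0018) higher, and Il22 was above background in 3 HDM ears and no sham ear (adjusted p = 0.0263), with an HDM mean of 4.49, under the sham background mean of 5.20. With values under the mean ear background raised to that level, neither stayed past the threshold, with an adjusted p of 0.0789 for Il17f and 0.349 for Il22, and Il17a passed it without HDM ear 3 or HDM ear 8, with 0.0456 and 0.0499, and in the fit of all 32 arrays, with 0.03. Nfkbiz, a transcriptional cofactor downstream of IL-17, rose by 2.92 ± 0.33 (adjusted p = 8.95e-06) without overlap. In the IL-20 subfamily the ligand gene Il19 was below background in all sham ears and at least 22.7-fold (adjusted p = 7.54e-05) higher, whereas the receptor genes Il20ra and Il20rb fell by 1.88 ± 0.30 (adjusted p = 1.70e-04) and 2.20 ± 0.51 (adjusted p = 0.00325). The whole list had 5 higher and 2 lower of 9 measured.

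Other cytokine families rose in part. Of TNF family ligands and receptors, 15 rose and 0 fell of 26 measured. Tnf ran from 4.54 (median 5.38) to 6.51 in sham ears and from 6.72 (median 7.46) to 9.91 in HDM ears and rose by 2.52 ± 0.42 (adjusted p = 2.21e-04), and its receptor genes Tnfrsf1a and Tnfrsf1b by 1.78 ± 0.22 (adjusted p = 2.33e-05) and 2.34 ± 0.41 (adjusted p = 3.53e-04). In the IL-6 and oncostatin M family, 6 rose and 1 fell of 13 measured. Il6 was seen above background in 4 HDM ears and no sham ear, and was at least 2.33-fold (adjusted p = 0.0069) higher, a call lost with low values raised to the mean ear background (adjusted p = 0.106). The receptor gene Osmr, which serves oncostatin M and IL-31, rose by 1.74 ± 0.17 (adjusted p = 1.79e-06), whereas Il31ra was -0.33 ± 0.22 (adjusted p = 0.297). Of JAK, STAT and SOCS genes, 6 rose and 2 fell of 15 measured, with the feedback inhibitor Socs3 up by 3.68 ± 0.58 (adjusted p = 1.45e-04) and Stat3, the mediator of IL-6 and IL-22 signals, by 1.65 ± 0.16 (adjusted p = 1.78e-06). Jak1 was 0.27 ± 0.16 (adjusted p = 0.222). Among NF-kB regulators 12 rose and 1 fell of 17 measured, led by Bcl3, a nuclear partner of NF-kB, with 4.82 ± 0.42 (adjusted p = 6.03e-07). Of interferon response genes, 13 rose and 0 fell of 31 measured, with Oasl2 at least 7.63-fold (adjusted p = 9.60e-05) higher and Mx1 up by 2.35 ± 0.51 (adjusted p = 0.00206), while Ifng, the interferon gamma gene, was above background in 1 HDM ear and no sham ear and was not called (adjusted p = 0.763).

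Lymphocyte, mast cell and eosinophil lists changed in part. Of T cell genes, 14 rose and 0 fell of 25 measured. Icos, a costimulatory receptor gene of activated T cells, ran from 5.60 (median 5.95) to 6.60 in sham ears and from 8.08 (median 10.15) to 12.39 in HDM ears and rose by 4.18 ± 0.57 (adjusted p = 4.77e-05) with no overlap, and Cd4 rose by 1.34 ± 0.33 (adjusted p = 0.00431) with 5 HDM ears above every sham ear. Cd8a was above background in 4 HDM ears and no sham ear (adjusted p = 0.0191), with an HDM mean of 4.69, under the sham background mean, and the call was lost with low values raised to the mean ear background (adjusted p = 0.248). The T cell markers gave a mixed result, since of the 3 measured only Icos was called and the lowest difference among them was -0.40. Of natural killer and cytotoxic genes, 3 rose and 0 fell of 14 measured, or 21.4%, near the 15.8% of all rows called higher. Of these 14 genes, 9 were below background on every ear, and the granzyme gene Gzmb was at least 3.96-fold (adjusted p = 9.52e-05) higher. B and plasma cell genes were near background, with 2 higher and 0 lower of 14 measured, and both measured B cell markers, Ms4a1 and Cd79a, were below background on all ears. Of mast cell genes, 8 rose and 0 fell of 16 measured. Hdc, which encodes the enzyme that makes histamine, rose by 5.40 ± 0.85 (adjusted p = 1.47e-04) and the protease markers Cpa3, Cma1, Mcpt4 and Tpsb2 rose by 0.50 to 0.85. Eosinophil genes had 3 higher and 0 lower of 7 measured, and 5 of them were below background on every ear, among them the markers Prg2 and Epx. The third measured marker, Siglecf, was called higher and was above background in 1 HDM ear.

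Of MHC class II genes 2 rose and 0 fell of 11 measured, or 18.2%, near the 15.8% of all rows called higher. The risers were the protease gene Ctss by 2.15 ± 0.30 (adjusted p = 5.75e-05) and H2-DMb2, a class II loading gene, by 1.06 ± 0.17 (adjusted p = 2.19e-04). Of dendritic and Langerhans cell genes, 8 rose and 0 fell of 22 measured, and the markers Cd207, Flt3 and Cd209a were not called, with differences from -0.35 to -0.09. Of MHC class I and immunoproteasome genes, 7 rose and 0 fell of 16 measured, with the immunoproteasome subunit gene Psmb10 up by 2.27 ± 0.34 (adjusted p = 1.03e-04).

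Matrix, vessel and mediator genes rose in part. Of matrix metalloproteinases and inhibitors, 12 rose and 2 fell of 21 measured. Timp1, an inhibitor of these proteases, was below background in all sham ears and at least 33.3-fold (adjusted p = 4.39e-05) higher, Mmp9 rose by 5.06 ± 0.93 (adjusted p = 5.40e-04) and Adam8, a leukocyte metalloproteinase gene, by 3.64 ± 0.42 (adjusted p = 1.06e-05). For Mmp9 the sham mean was under background, and with low values raised to background the difference was 4.82. Of collagen and fibroblast matrix genes, 4 rose and 7 fell of 23 measured, with elastin, Eln, down by 1.70 ± 0.30 (adjusted p = 4.36e-04). Of endothelial and adhesion genes, 10 rose and 2 fell of 22 measured. Selp, the P-selectin gene, rose by 2.93 ± 0.40 (adjusted p = 4.79e-05) and Lyve1, a marker of lymphatic endothelium, by 1.99 ± 0.17 (adjusted p = 6.03e-07). Of prostaglandin genes, 7 rose and 2 fell of 22 measured, with Ptges, a prostaglandin E synthase gene, up by 2.84 ± 0.39 (adjusted p = 4.81e-05). In tryptophan, itaconate and iron handling 12 rose and 0 fell of 18 measured, with the haptoglobin gene Hp up by 4.36 ± 0.68 (adjusted p = 1.49e-04). Among aryl hydrocarbon and drug metabolism genes 6 rose and 6 fell of 24 measured, with the retinol-active dehydrogenase gene Dhrs9 up by 5.06 ± 0.37 (adjusted p = 9.30e-08), or 4.53 with low values raised to background. Of water and ion transport genes, 10 rose and 2 fell of 18 measured, with the water and glycerol channel gene Aqp3 up by 2.33 ± 0.23 (adjusted p = 2.35e-06).

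The decreases were led by striated muscle. Of 28 measured members, 0 rose and 28 fell, with a median difference of -2.62, and in 17 of them all HDM ears lay below all sham ears. The mean of the list ranged from 10.50 to 12.45 in sham ears and 7.78 to 9.86 in HDM ears, so that the groups did not overlap. Myh4, the fast myosin heavy chain gene, ran from 15.60 (median 17.58) to 18.29 in sham ears and from 9.62 (median 12.45) to 14.46 in HDM ears and fell by 5.17 ± 0.68 (adjusted p = 3.46e-05). The calcium buffer gene Pvalb fell by 4.38 ± 0.48 (adjusted p = 7.44e-06), the calcium pump gene Atp2a1 by 3.86 ± 0.50 (adjusted p = 3.20e-05) and the calcium store gene Casq1 by 3.70 ± 0.47 (adjusted p = 2.53e-05). Ppp1r3a, which targets a phosphatase to muscle glycogen, fell by 3.55 ± 0.45 (adjusted p = 2.96e-05). The developmental myosin genes also fell, Myh8 by 3.93 ± 0.58 (adjusted p = 9.25e-05) and Myh3 by 3.90 ± 0.58 (adjusted p = 8.95e-05), while the list of regulators, developmental myosins and atrophy genes as a whole had 0 higher and 7 lower of 18 measured. Whether the punches held less muscle was not tested.

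Cartilage and fat moved in the same direction. Of cartilage genes, 0 rose and 17 fell of 22 measured, with a median of -1.13 and list means of 7.81 to 8.05 in sham ears and 6.06 to 7.40 in HDM ears. Chad, a matrix protein gene of cartilage, ran from 10.70 (median 11.50) to 12.36 in sham ears and from 6.61 (median 8.95) to 10.64 in HDM ears and fell by 2.74 ± 0.49 (adjusted p = 4.32e-04), and Acan, the aggrecan gene, fell by 1.79 ± 0.32 (adjusted p = 4.68e-04). Of adipocyte genes, 0 rose and 14 fell of 15 measured, with a median of -1.53. Plin1, the coat protein gene of lipid droplets, fell by 2.27 ± 0.24 (adjusted p = 6.26e-06) and the leptin gene Lep by 2.46 ± 0.40 (adjusted p = 1.92e-04), both without overlap. With the mean of the skeletal muscle list as a covariate, only 21 rows remained called higher and 2 lower, and with that of the cartilage list 177 and 50. In the cartilage fit Flg2, Fa2h and Sema3d turned and were called higher, with adjusted p of 0.0137, 0.0133 and 0.0491. These means share 77.56% and 71.27% of their variance with the treatment groups, so in such a fit the agent and the tissue content cannot be told apart.

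Skin appendage, glial and nerve lists were mixed, some with shares of falls near the 14.6% of all rows. Of hair follicle stem cell and signalling genes, 0 rose and 10 fell of 20 measured. Hair keratin-associated proteins had 0 higher and 9 lower of 50 measured, and 18 were below background throughout. Krtap3-2 and Krtap3-3 have identical values on every array, from 9.10 (median 10.10) to 10.39 in sham ears and from 4.41 (median 5.91) to 7.08 in HDM ears, and fell by 3.96 ± 0.34 (adjusted p = 5.14e-07). Of hair shaft keratins, 1 rose and 4 fell of 13 measured, of inner root sheath genes 0 rose and 1 fell of 11 measured, and of melanocyte genes 0 rose and 3 fell of 12 measured. Schwann cell and myelin genes had 0 higher and 5 lower of 13 measured, with S100b, a glial and cartilage protein gene, down by 2.49 ± 0.39 (adjusted p = 1.50e-04) and the myelin gene Mbp by 2.04 ± 0.45 (adjusted p = 0.00204). Of itch and nerve signalling genes, 5 rose and 2 fell of 21 measured, and the opioid precursor gene Penk fell by 2.52 ± 0.29 (adjusted p = 9.83e-06). Sema3d, a guidance factor gene, fell by 3.81 ± 0.93 (adjusted p = 0.00441), Corin, a protease gene of dermal papilla and heart, by 3.59 ± 0.69 (adjusted p = 7.76e-04), and Tspan8, a tetraspanin gene, by 3.53 ± 0.42 (adjusted p = 1.41e-05). Circadian clock genes had 4 higher and 9 lower of 18 measured. Among them Hlf fell by 2.30 ± 0.61 (adjusted p = 0.00832) and Npas2 by 1.88 ± 0.27 (adjusted p = 7.35e-05), while Nfil3 rose by 2.19 ± 0.49 (adjusted p = 0.00241) and Bhlhe40 by 1.67 ± 0.20 (adjusted p = 1.52e-05). The time of day of sampling is not given in the labels. Olfactory receptors, which are not expected in ear, had 5 higher and 9 lower of 1091 measured, with 1010 below background on all ears. Erythroid and platelet genes had 2 higher and 0 lower of 6 measured.

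The 8 HDM ears did not respond equally. Of the 3500 higher rows, the ears of mice 1, 2, 5 and 7 lay above every sham ear in 91.7%, 89.4%, 90.5% and 90.1%. The ears of mice 3, 4, 6 and 8 did so in 56.4%, 73.3%, 62.4% and 62.4%. The sham ears, each set against the other 7, did so in 9.54% to 16.9%. These rows were called from the same ears, which favours high shares in HDM ears, and at most 1 sham ear per row can be the highest. The sham shares are therefore no test of the HDM shares. For the 3233 lower rows the HDM ears ranged from 42.6% in mouse 8 to 90.2% in mouse 1. Neutrophil genes averaged 9.84, 10.40, 6.32, 7.46, 9.99, 7.25, 9.25 and 6.24 in HDM mice 1 to 8. The skeletal muscle list averaged 7.78, 7.99, 9.79, 8.97, 8.23, 9.86, 8.73 and 9.70. In both lists mice 1, 2, 5 and 7 lay on one side of mice 3, 4, 6 and 8, though in a different order. The list of AP-1 and other immediate transcription factors was not divided in this way, with 10.97, 11.10, 10.15, 10.20, 10.92, 10.25, 10.70 and 10.99. The SD of a called row had a median of 0.359 in sham and 0.514 in HDM ears, and 72.5% of called rows spread more widely in HDM ears. Over all rows, each array correlated with the mean of the rest of its group at 0.989 to 0.994 in sham and 0.982 to 0.993 in HDM ears. The labels give no severity or dose per mouse.

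**Figure D4:**
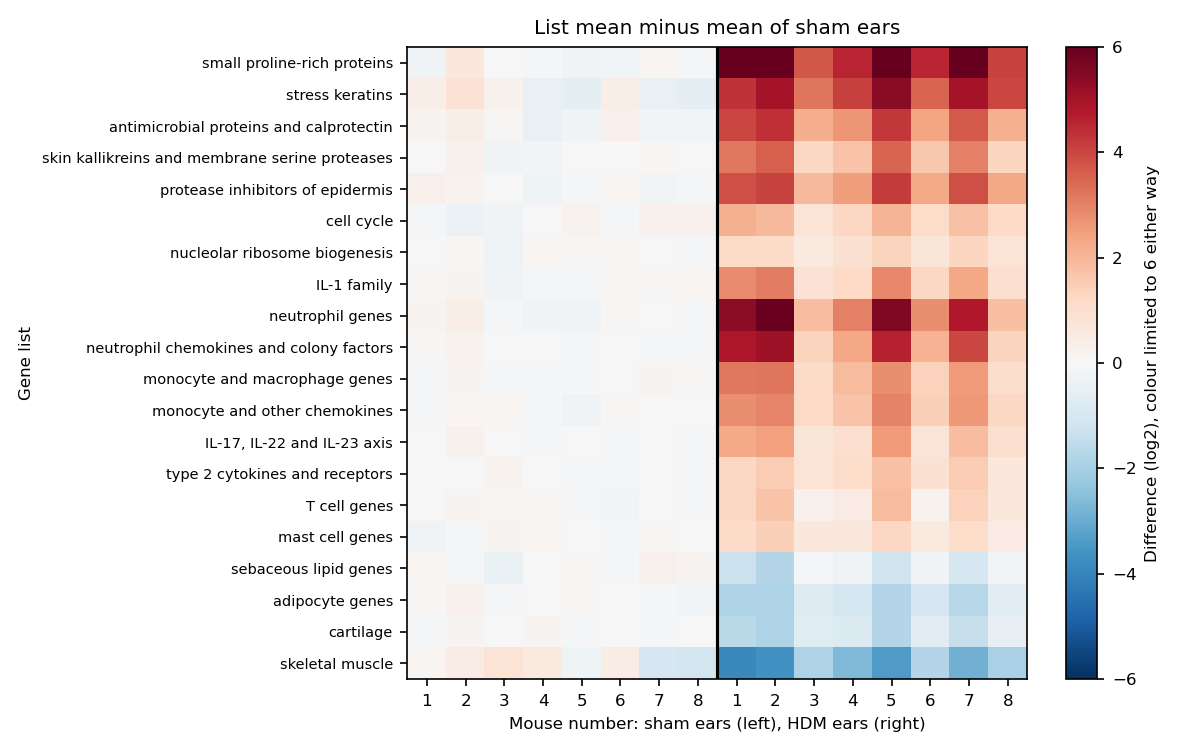
Mean of the members of 20 gene lists in each ear minus the mean of the 8 sham ears (colour, log2 scale), with the 8 sham ears on the left and the 8 HDM ears on the right. HDM mice 1, 2, 5 and 7 are darker than mice 3, 4, 6 and 8 in the neutrophil list and in the muscle list alike.

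The HDM effect in ear differed from that in back skin for part of the genes. Over all rows, the difference between the HDM effect in ear and that in back skin was called for 2251 rows (10.1%), 1503 with a more positive and 748 with a more negative effect in ear. Of the 15 largest rises in ear, 14 were also called higher in back skin and 12 rose more in ear. In back skin 14.7% of all rows were called in either direction. Because these genes were chosen for a large difference in ear, a smaller one in back skin is favoured by the choice, and the same holds for the falls. Krt16 rose by 4.05 ± 0.55 (adjusted p = 3.33e-06) in back skin, and its ear effect was larger by 6.32 ± 0.78 (adjusted p = 5.16e-06). The stress keratin list, which holds Krt16, averaged 9.2 in sham and 13.51 in HDM ears, against 14.95 in sham and 16.74 in HDM back skin. For this list, the larger ear difference thus began from a lower sham level and ended below HDM back skin. The list has 3 measured genes, and only Krt16 among them was called for ear minus back. S100a9 rose in back skin by 8.57 ± 0.84 (adjusted p = 1.49e-08), and the ear minus back difference of 3.46 ± 1.19 (adjusted p = 0.0603) missed the threshold. Alox8 was the exception, with -0.67 ± 0.66 (adjusted p = 0.569) in back skin and an ear minus back difference of 9.32 ± 0.94 (adjusted p = 1.87e-07). The chemokine gene Ccl22, higher in HDM ears, fell in back skin, at -2.42 ± 0.47 (adjusted p = 4.36e-04), and its ear minus back difference was 5.63 ± 0.66 (adjusted p = 2.10e-06). Ccl17 was not called in back skin, at -0.82 ± 0.35 (adjusted p = 0.116), and its ear minus back difference, which rests on sham ears below background, was 4.24 ± 0.50 (adjusted p = 2.10e-06). H2-DMb2 likewise rose in ear and had -1.55 ± 0.27 (adjusted p = 1.18e-04) in back skin, an ear minus back difference of 2.60 ± 0.38 (adjusted p = 5.26e-05).

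Of the 15 largest falls in ear, 5 were also called lower in back skin, and for 10 the difference between the sites was called. Myh4 was -0.42 ± 0.62 (adjusted p = 0.722) in back skin, with an ear minus back difference of -4.76 ± 0.88 (adjusted p = 6.65e-04), and Krtap3-2 was 0.09 ± 0.75 (adjusted p = 0.96), with -4.04 ± 1.06 (adjusted p = 0.0119). Sham back skin was uneven here, with skeletal muscle list means from 9.29 to 14.24 and those of hair keratin-associated proteins from 6.51 to 14.16. A change of these genes in back skin could be hidden by that spread, which the pooled standard errors may understate. Krt77 was the one that fell less in ear, since it fell by 9.93 in back skin and its ear minus back difference was 5.12 ± 1.10 (adjusted p = 0.00286). Flg2 differed between the sites by -2.69 ± 1.67 (adjusted p = 0.337), which missed the threshold. Cd44, the adhesion receptor of wound edges, had 0.55 ± 0.23 (adjusted p = 0.111) in back skin and 2.22 ± 0.33 (adjusted p = 5.59e-05) for ear minus back.

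**Figure D5:**
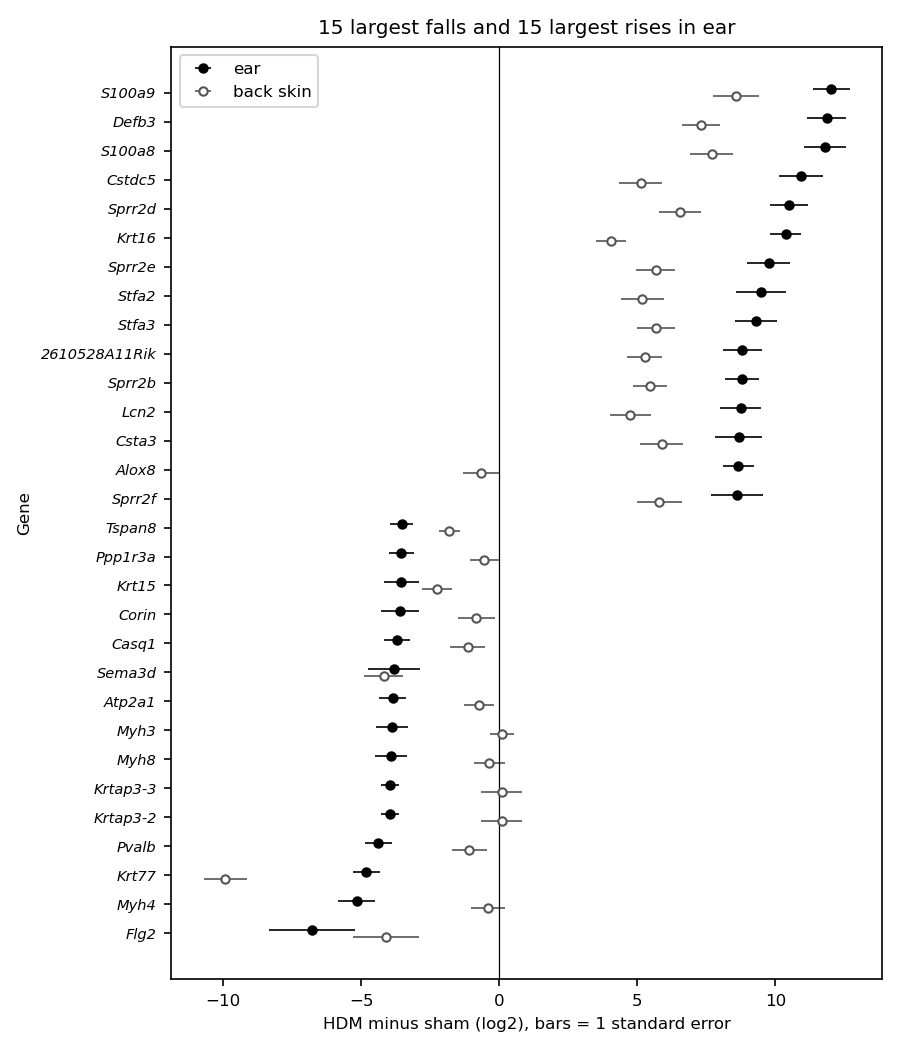
HDM minus sham difference (x axis, log2 scale) in ear (filled points) and in back skin (open points) for the 15 genes with the largest rise and the 15 with the largest fall in ear, with bars of 1 standard error. The genes were chosen for their ear difference, which favours a smaller one in back skin. Alox8 lies near 0 in back skin, and Krt77 lies further below 0 in back skin than in ear.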

How the data were processed

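The deposited value table holds 28846 rows for 32 arrays. Per the submitters' processing notes, the authors processed the arrays with RMA and the Transcriptome Analysis Console, and the deposited values are on a log2 scale. Neither versions nor build is given in the sources used here. RMA quantile-normalizes arrays, which can hide shifts shared by all genes, and any later rescaling is unknown, so a log2 difference may not be an exact fold. Per the labels, 100 ng of total RNA from 8 mm punches, kept in RNAlater for at least 18 h, went onto each array.

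From these values, 8 HDM and 8 sham ears were compared with limma 3.58.1 under R 4.3.3, by a two-sided test with lmFit and eBayes. P-values were adjusted by Benjamini-Hochberg over the 22206 rows that are not array controls and called at an adjusted p under 0.05. Values after ± beside a difference are its standard error. The ear minus back contrast used all 32 arrays. Background is the median of 5222 negative control rows per array. For a gene under background on all ears of a group that has the lower level, the mean background of that group replaced its mean in an at-least fold. Ranges, medians and counts describe the 74 gene lists, without a set test. Gene names come from the platform annotation, where 2634 rows have none, and the row with the highest ear mean stands for a gene. Named are the 15 largest rises and falls among called genes whose groups do not overlap, up to 4 called members of each list, and preset pathway and drug target genes. Among other genes, fallers or markers that complete a count were chosen after their values were seen. The members, lists and named genes were chosen with earlier results of these data known. The TATAAA motif and the floor at the mean ear background were added after the data were seen.

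On simulated data for the ear comparison, 200 of 22206 rows were changed: of 100 changed by 1, 76 were recovered, and of 100 changed by 2, 93 were, with 11 false calls. Simulated rows varied independently, with the same normal spread in both groups, whereas real called rows mostly spread more widely in HDM ears. These counts check the fit and give no error rate of the real comparison. Mouse numbers did not pair the groups: deviations of sham and HDM ears of the same number correlated at -0.072 to 0.108. Those of ear and back skin of the same number correlated at -0.084 to 0.14 in HDM and -0.113 to 0.04 in sham mice. P-values measure the spread between the mice of this study only. Alternatives covered the fit, test, scaling, low values, identical rows, tissue lists as covariates and each ear left out.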

Additional observations from a re-analysis of the deposited data

Results flagged for a closer look

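Single ears stood apart from the rest of their group in 13 of the 316 groups of 8 ears checked, where the gap from 1 ear to the nearest other, as a share of the group's range, passed Dixon's critical value for 8 samples. Chance alone sets apart about 1 in 20 groups. Of these, 10 lie among sham and 3 among HDM ears. In sham ears they were the highest value of Alox8, 10.94 in sham ear 2, the lowest value of Ccl9, 5.95 in sham ear 5, the lowest value of Epgn, 2.49 in sham ear 1, the highest value of Ifng, 4.15 in sham ear 4, the highest value of Il1rn, 11.99 in sham ear 2, the lowest value of Krt10, 19.38 in sham ear 3, the lowest value of Krt5, 18.58 in sham ear 3, the highest value of Lor, 14.23 in sham ear 2, the lowest value of Stfa2, 3.25 in sham ear 7, and the highest value of Tnfrsf4, 8.28 in sham ear 4. In HDM ears they were the highest value of Ifng, 4.81 in HDM ear 5, the lowest value of Il31ra, 3.83 in HDM ear 8, and the lowest value of Krt10, 19.50 in HDM ear 2. The values of Epgn, Stfa2 and Il31ra and the sham value of Ifng were under background, and those of Krt10 lie near the top of the value range.

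The HDM effect in ear differed from that in back skin, by the test of the difference itself, for 9 of the 11 genes whose test is given. The ear minus back difference was 9.32 for Alox8, 4.24 for Ccl17, 5.63 for Ccl22, 2.22 for Cd44, 2.60 for H2-DMb2, 6.32 for Krt16, 5.12 for Krt77, -4.04 for Krtap3-2 and -4.76 for Myh4. It missed the threshold for S100a9 and Flg2. Alox8, Krt16, Krt77, Krtap3-2, Myh4, S100a9 and Flg2 were chosen for a large ear difference, and the other 4 genes were picked for this test with their values known.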

How the results depend on the processing

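The counts of rows called higher and lower stayed within 1.5 times of those reported under 11 kinds of alternative: the fit of all 32 arrays, array weights, an intensity trend, the exact Wilcoxon test, equal medians, quantile normalization, the filter on dim rows, identical rows counted once, the common floor, the replicate block and each ear left out. Leaving out 1 ear gave 3037 to 3626 higher and 2708 to 3523 lower rows, 5745 to 7149 in all, and 720 to 843 list members against 800. It also gave 1712 to 2059 non-overlapping rows against 1698, a count that cannot fall when an ear is left out. With mouse number as a replicate block, which the correlations do not bear out as a pairing, 3257 rows were higher and 2959 lower, and of the named genes only Erbb2 lost its call (adjusted p = 0.0868). For ear minus back, 2325 rows were called with mouse number as a random replicate block and 2415 with equal medians, against 2251. Raising values to each array's own background gave 16165 called rows, of which 12540 were lower, and 2074 list members, because that background is itself lower in HDM ears. It turned the sign of Ifng -0.37, Il13 -0.38 and Il4 -0.38. With the skeletal muscle list as a covariate, 23 rows (21 higher and 2 lower) and 11 list members were called, and with the cartilage list 227 (177 and 50) and 81. Of the 158 genes with values in the text, 116 and 81 lost their call in these fits without a change of sign. Those whose sign turned had, with the muscle list, Acan 0.24, Arg1 -0.73, Cd14 -0.19, Cd4 -0.38, Cd8a -0.41, Chad 0.45, Col17a1 0.47, Corin 0.48, Dsg1a 0.36, Fa2h 0.87, Flg2 1.76, Hlf 0.96, Il20rb 0.13, Il22 -1.02, Il33 -0.39, Il6 -1.27, Lor 0.25, Mt4 1.47, Mx1 -0.35, Myh8 0.19 and Sema3d 0.98. With the cartilage list they had Acan 0.11, Arg1 -1.72, Cd14 -0.75, Cd4 -0.11, Cd8a -1.10, Cers3 -0.07, Chad 0.20, Col17a1 0.66, Corin 0.81, Dsg1a 0.93, Erbb2 0.72, Fa2h 1.89, Fabp5 -0.12, Flg2 3.24, Hlf 1.57, Hsd3b6 1.29, Il17a -1.99, Il17f -0.82, Il20rb 0.91, Il22 -1.64, Il33 -1.37, Il6 -2.0, Krt15 0.45, Lor 0.69, Mbp 0.45, Mmp9 -0.60, Mt4 1.87, Mx1 -0.39, Nfil3 -0.69, Sema3d 2.10, Slc16a3 -0.85 and Sox9 0.46. Of these, Flg2, Fa2h and Sema3d were then called higher (adjusted p = 0.0137, 0.0133 and 0.0491) and Il17a lower (0.0133). Agent and list share most of their variance, so neither fit separates them. The background shift limits what can be said of genes near or below background, and 11 rows reach the top of the value range on an ear array.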
